A study of Mus musculus with 4 samples.

Results

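The ZBTB factors other than MIZ-1 were followed in B220+ cells from mouse spleen. They were taken from the RNA-seq count table as every protein-coding gene whose symbol starts with Zbtb, leaving out Zbtb17, which encodes MIZ-1 itself. Of 40 such genes, 37 reached 10 counts in 2 or more libraries and were kept, out of 14554 genes that passed the same limit and 41214 genes in the table. All 37 in fact reached 10 counts in all 4 libraries.

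Total RNA was sequenced from unstimulated B220+ splenocytes of WT mice (MIZ-1WT) and of mice in which Mb1-Cre deletes the floxed POZ domain of Miz-1 (labelled Miz-1 deltaPOZ, here MIZ-1DPOZ), with 2 libraries per genotype. Mb1 is another name for Cd79a, whose promoter confines the Cre to B cells, so that other B220+ cells keep the intact gene, and the truncated protein keeps its zinc fingers. The mice were of C57BL/6 background, and the study's methods give 1 age range, of young adult animals, for all its experiments. The sources used here do not say whether the WT mice carried the Cre. The libraries are called biological duplicates, so p-values measure the spread between these samples only.

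ZBTB proteins carry an N-terminal BTB/POZ domain and C-terminal C2H2 zinc fingers. The zinc fingers read DNA, while the POZ domain pairs the proteins with themselves or with relatives and recruits corepressors such as NCOR1 and BCOR. Several members are known as fate switches of lymphocytes, among them Bcl6 in the germinal center, Zbtb7b in helper T cells and Zbtb7a in the choice between B and T lineages. MIZ-1 is itself a ZBTB protein, which activates genes on its own and represses them together with MYC or BCL6.

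Each library held between 43026814 and 46387209 counts on genes. Zbtb17 had 2087 and 1946 counts in MIZ-1WT and 1774 and 1669 in MIZ-1DPOZ, a log2 fold change of -0.32, and counts per gene do not show whether the POZ exons were lost. The 10 pan-B cell genes were abundant in every library, with summed levels from 11170 to 13809 CPM (counts scaled by library size and TMM factors), and 8 of them were lower in MIZ-1DPOZ. They include Ptprc, which is not limited to B cells, at mean CPM of 3319 in MIZ-1WT and 2831 in MIZ-1DPOZ. All 16 macrophage genes were higher in MIZ-1DPOZ, with summed CPM of 966 and 1291 in MIZ-1WT and 5781 and 3616 in MIZ-1DPOZ, and so were all 6 germinal center genes (93.2 and 99.7 against 478 and 430). All 7 marginal zone B cell genes were higher as well (2628 and 2611 against 3240 and 3480). Of 4 follicular B cell genes, 2 were lower (Fcer2a and Klf2) and 1 was higher (Cr2, also a marginal zone gene). By flow cytometry, the study found fewer follicular B cells and a higher frequency of marginal zone B cells in the spleen of these mice. Xist lay at 1.12 and 1.43 CPM in MIZ-1WT and at 801 and 930 CPM in MIZ-1DPOZ, while 4 Y-linked genes ran the other way. Among them, Ddx3y lay at 363 and 354 CPM in MIZ-1WT and at 14.3 and 14.2 CPM in MIZ-1DPOZ. All 4 were still counted in both MIZ-1DPOZ libraries. The sex of the animals and the genotype cannot be told apart. In such bulk samples, fewer cells of a type and less RNA per cell cannot be told apart either.

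The 300 bases around the start site, 250 before it and 50 after it, are shown for 6 members that later results turn on. Zbtb33 and Zbtb18 are the members with the smallest p and the highest level among those that fell, Zbtb32 is a member that rose, Zbtb11 holds an E-box, and Zbtb25 and Zbtb1 lie head to head with 663 bases between them. The sequences are those of RefSeq on GRCm38.p6, read 5′ to 3′ on the strand of the gene. Capitals mark CACGTG, the E-box bound by MYC and MAX, and the CCAAT box, each on either strand.
Zbtb33 (chrX:38189543-38189842, plus strand): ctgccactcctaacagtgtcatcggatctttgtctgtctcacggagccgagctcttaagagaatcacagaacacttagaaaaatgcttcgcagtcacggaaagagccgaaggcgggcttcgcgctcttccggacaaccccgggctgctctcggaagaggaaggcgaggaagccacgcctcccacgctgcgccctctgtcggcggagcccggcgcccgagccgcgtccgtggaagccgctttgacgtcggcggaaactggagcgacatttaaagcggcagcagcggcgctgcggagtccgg
Zbtb18 (chr1:177442101-177442400, plus strand): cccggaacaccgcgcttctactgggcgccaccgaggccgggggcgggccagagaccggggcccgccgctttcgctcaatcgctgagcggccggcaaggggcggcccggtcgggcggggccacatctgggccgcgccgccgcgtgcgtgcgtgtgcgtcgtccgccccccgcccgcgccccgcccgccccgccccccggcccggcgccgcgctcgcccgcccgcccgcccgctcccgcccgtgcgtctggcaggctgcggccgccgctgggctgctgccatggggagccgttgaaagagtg
Zbtb11 (chr16:55973554-55973853, plus strand): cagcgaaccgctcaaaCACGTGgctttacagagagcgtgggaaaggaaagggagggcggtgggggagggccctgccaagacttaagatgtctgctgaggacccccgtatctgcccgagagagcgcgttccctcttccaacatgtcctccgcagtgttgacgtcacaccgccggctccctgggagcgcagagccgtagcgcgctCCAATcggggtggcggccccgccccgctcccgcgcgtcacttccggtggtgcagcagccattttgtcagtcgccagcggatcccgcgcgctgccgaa
Zbtb25 (chr12:76369511-76369810, minus strand): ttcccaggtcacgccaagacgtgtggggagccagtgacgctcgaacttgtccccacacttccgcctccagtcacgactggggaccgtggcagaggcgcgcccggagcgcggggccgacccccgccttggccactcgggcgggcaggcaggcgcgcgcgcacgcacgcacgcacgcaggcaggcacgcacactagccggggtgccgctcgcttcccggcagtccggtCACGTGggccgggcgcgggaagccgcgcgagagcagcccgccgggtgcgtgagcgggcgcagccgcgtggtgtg
Zbtb1 (chr12:76370270-76370569, plus strand): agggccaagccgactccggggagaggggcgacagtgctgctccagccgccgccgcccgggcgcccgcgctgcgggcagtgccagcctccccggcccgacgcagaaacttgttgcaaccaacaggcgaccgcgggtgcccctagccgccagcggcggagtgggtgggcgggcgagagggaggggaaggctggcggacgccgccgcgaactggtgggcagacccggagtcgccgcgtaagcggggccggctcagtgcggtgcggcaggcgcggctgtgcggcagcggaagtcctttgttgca
Zbtb32 (chr7:30598860-30599159, minus strand): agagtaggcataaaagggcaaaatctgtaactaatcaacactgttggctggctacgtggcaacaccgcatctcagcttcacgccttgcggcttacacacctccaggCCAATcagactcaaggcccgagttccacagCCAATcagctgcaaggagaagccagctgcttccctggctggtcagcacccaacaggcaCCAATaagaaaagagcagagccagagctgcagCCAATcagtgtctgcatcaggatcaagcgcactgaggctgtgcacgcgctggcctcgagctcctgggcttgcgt

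The promoter of Zbtb18 is 81.7% GC, with 51 CpG, and that of Zbtb32 is 56.0% GC, with 10 CpG. The median over the 27 members whose RefSeq start lay within 1000 bases of the annotated 5′ end was 67.3% GC and 30 CpG, against 60.7% and 21 over 9307 promoters of tested genes. CACGTG occurred in 5 of these 27 promoters (Zbtb11, Zbtb21, Zbtb24, Zbtb25 and Zbtb49), or 18.5%, and in 10.4% of all promoters. Like the other motifs, it was searched on both strands. CCAAT occurred in 10 of them (37.0% against 39.2%), and the promoter of Zbtb32 held 4 copies. The MIZ-1 hexamer ATCGAT was in 0 of the 27 windows and in 0.784% of all. TCTCGCGA, a palindrome linked to Kaiso, was in the promoter of Zbtb42 and the Kaiso site TCCTGCNA was in that of Zbtb37, with 2.48% and 4.61% of all promoters. GGGCGG, the GC box, was present in 20 of the 27 (74.1% against 64.7%), and CCGGAAGT, an ETS core, in 4 (14.8% against 8.96%). The E-boxes and CCAAT boxes do not overlap one another, and each match describes letters in the window, not a bound site.

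In MIZ-1WT, the members ranged over more than 2 orders of magnitude in TPM, a level per exon length that allows genes to be compared. The median member lay at 13.7 TPM, beside 13.1 TPM for the median tested gene. Zbtb18, a repressor first known from brain development, was the highest at 80.1 ± 5.83 TPM (SD, n = 2). It was followed by Zbtb33 at 54.7 ± 0.662, Zbtb6 at 52.0 ± 1.501, Zbtb11 at 48.8 ± 1.48 and Zbtb22 at 41.8 ± 0.663 TPM. The steps from Zbtb33 to Zbtb6 and on to Zbtb11 were not much larger than the spread between replicates, whereas Zbtb18 stood well apart from the rest. Zbtb9 was the lowest member at 0.259 ± 0.0779 TPM, below Zbtb46 at 0.820 ± 0.0706 and Zbtb42 at 1.89 ± 0.594 TPM. Zbtb9 shares 84.4% of its exon length with Ggnbp1 on the same strand, which makes its counts uncertain.

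**Figure D1:**
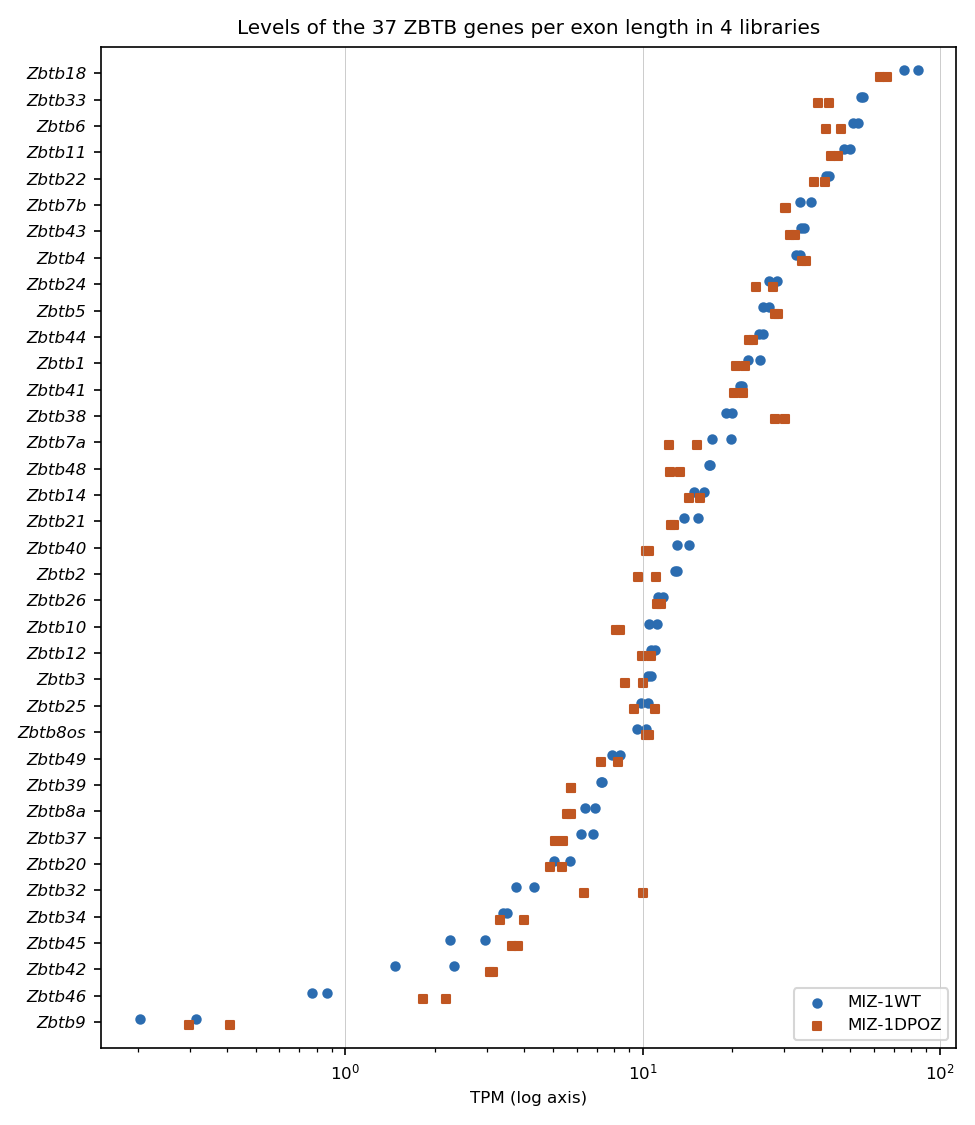
TPM (log axis) of each of the 37 ZBTB genes in the 2 MIZ-1WT libraries (circles) and the 2 MIZ-1DPOZ libraries (squares), ordered by the MIZ-1WT mean. Zbtb18 is at the top with 80.1 TPM in MIZ-1WT, and Zbtb9, at 0.259 TPM, is at the bottom.

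The question of the comparison is what happens to the relatives of MIZ-1 when B cells carry MIZ-1 without its POZ domain. Zbtb38, Zbtb46 and Zbtb32 rose in MIZ-1DPOZ, by log2 fold changes of 0.46, 1.18 and 0.90. A total of 17 members fell, by 0.19 to 0.54 on the log2 scale, and Zbtb33, Zbtb10, Zbtb18, Zbtb40 and Zbtb48 had the smallest p among them. Thus 20 of 37 members (54.1%) passed an adjusted p of 0.05 in the quasi-likelihood test of edgeR, adjusted over all tested genes by Benjamini-Hochberg, where 40.0% of all tested genes did. The share that rose was 8.11%, against 21.1% of all tested genes, and the share that fell was 45.9%, against 18.9%. The other zinc finger genes with Zfp symbols lay between these values, with 8.31% of 337 higher and 34.4% lower (42.7% in all).

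These directions are relative to the median tested gene, which TMM places at -0.01. The median member had a log2 fold change of -0.20 (quartiles -0.35 and -0.04), and 30 of the 37 lay below 0. Scaling to 9 pan-B cell genes, with Ptprc but without Cd79a, moved the median of all genes by 0.25 to 0.24 and that of the members to 0.05. Most of these 9 genes fall under TMM. Under that scaling, 7 members were higher and 3 lower, in place of 3 and 17, beside 41.4% and 5.43% of all tested genes. The members' median lay 0.19 below the median of all tested genes under both scalings. A change of scaling moves all genes by nearly the same amount, so this distance could hardly have changed. Zbtb33, Zbtb10 and Zbtb40 remained lower and Zbtb38, Zbtb46 and Zbtb32 remained higher, while the calls of 14 others that fell were lost. Zbtb4, Zbtb5, Zbtb42 and Zbtb45 also passed the test as higher with the pan-B scaling.

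**Figure D2:**
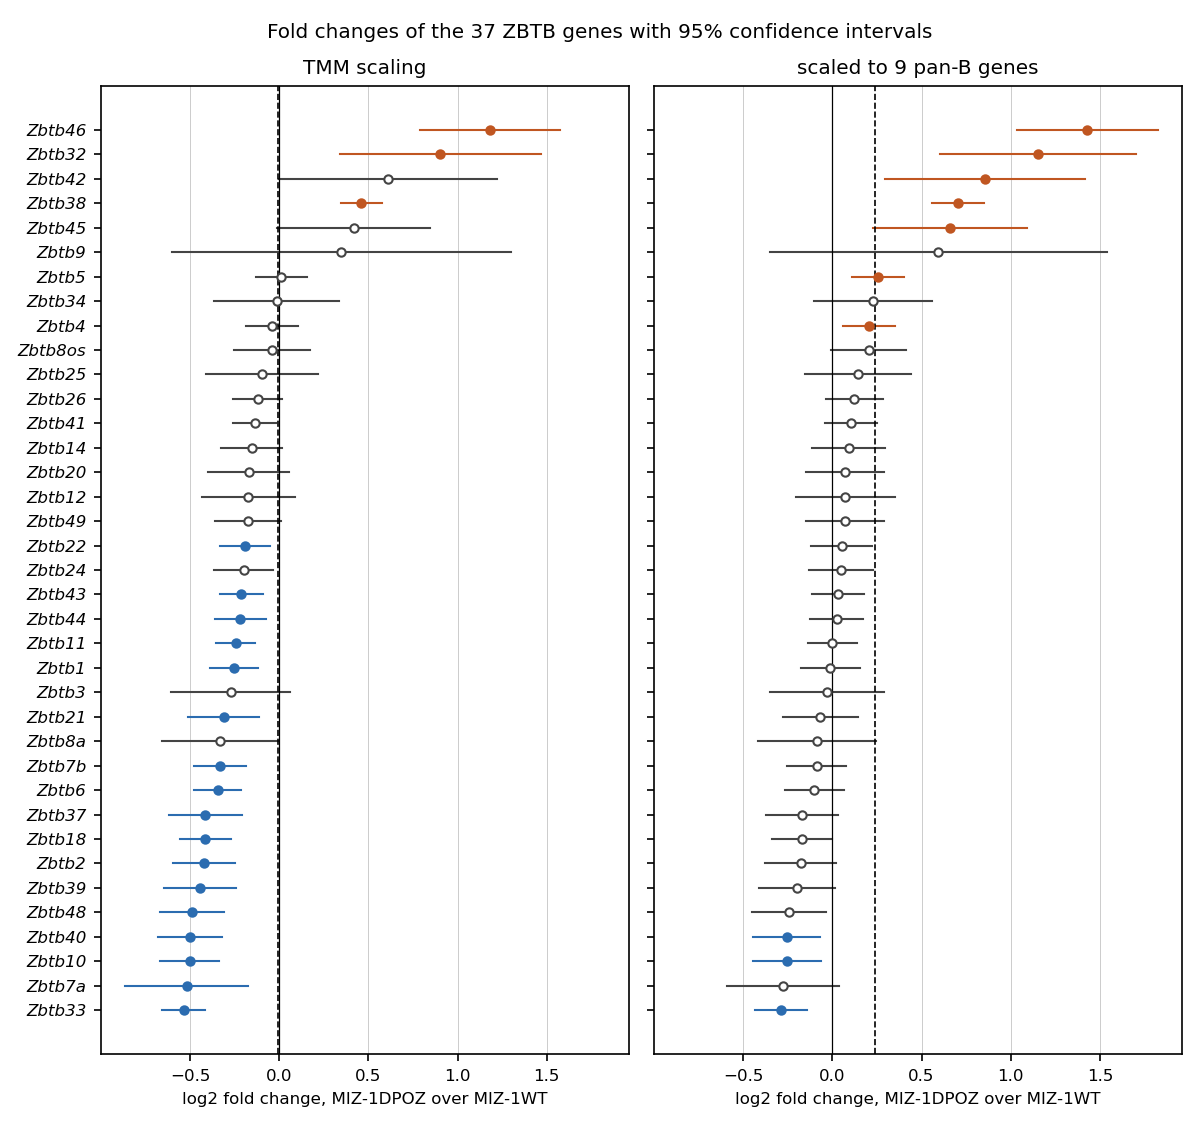
Log2 fold change (MIZ-1DPOZ over MIZ-1WT, 2 libraries each) of the 37 ZBTB genes with 95% confidence intervals, under TMM scaling (left) and scaled to 9 pan-B genes (right). Filled points passed an adjusted p of 0.05 (blue lower, orange higher), open points did not, and the dashed line marks the median of all tested genes (-0.01 left, 0.24 right). Counts of 17 lower and 3 higher on the left become 3 lower and 7 higher on the right.

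The CPM of 25 members (67.6%) lay lower in both MIZ-1DPOZ libraries than in either MIZ-1WT library, and those of 5 (13.5%) lay higher. Over all tested genes, the shares were 37.6% and 37.2%, and over the Zfp genes they were 57.3% and 23.1%. The number that passed the test varied with the libraries used. Without MIZ-1WT replicate 1, 5 members were lower and 2 higher, beside 5.75% and 9.39% of all tested genes. Without MIZ-1WT replicate 2, 9 were lower and 3 higher, beside 7.59% and 11.8%, and the 3 higher were Zbtb38, Zbtb46 and Zbtb42, since Zbtb32 lost its call and Zbtb42 gained one. Zbtb33, Zbtb10, Zbtb40, Zbtb38 and Zbtb46 passed the test with each library left out in turn and under both scalings.

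**Figure D3:**
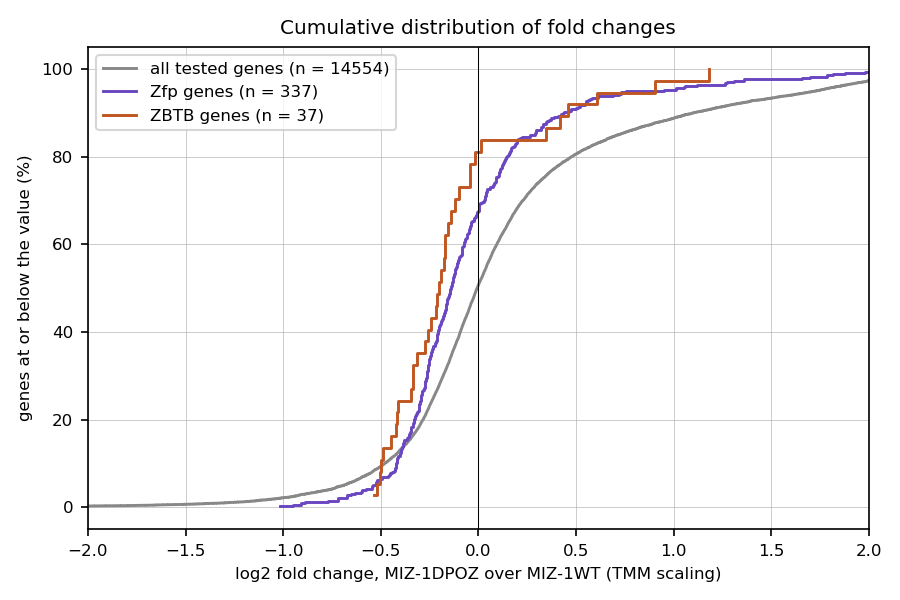
Cumulative share of genes (%) by log2 fold change under TMM scaling, for all 14554 tested genes, 337 Zfp genes and the 37 ZBTB genes. The ZBTB curve runs left of the curve of all genes through most of its range, with a median of -0.20 against -0.01, and the Zfp curve has its median at -0.14.

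Among members that bind methylated CpG, 1 of 3 rose and 1 fell, beside 21.1% and 18.9% of all tested genes. Zbtb33 (chrX:38189793-38197046, plus strand) encodes Kaiso, which binds methylated CpG and the Kaiso site. It had 4706 and 4658 counts in MIZ-1WT and 3658 and 3251 in MIZ-1DPOZ, or 108 and 111 against 76.9 and 74.1 CPM. Both MIZ-1DPOZ libraries were below both MIZ-1WT libraries, and replicates differed little. The log2 fold change was -0.54 (SE 0.05), with an adjusted p of 0.0016 in edgeR's quasi-likelihood test, and it ranged from -0.56 to -0.50 with single libraries left out. Zbtb33 is on the X chromosome, where 14.6% of 479 tested genes rose and 16.9% fell, and shares 9.25% of its exon length with Tmem255a on the opposite strand.

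Zbtb38 (chr9:96682770-96752831, minus strand) encodes another methyl-CpG binding repressor and moved the opposite way. It had 3989 and 3698 counts in MIZ-1WT and 5933 and 5361 in MIZ-1DPOZ (91.4 and 88.0 against 125 and 122 CPM). The groups were well separated, and the log2 fold change was 0.46 (SE 0.05) with an adjusted p of 0.0020. Zbtb4, the remaining methyl-CpG binder, had 4669 and 4407 counts in MIZ-1WT and 4681 and 4728 in MIZ-1DPOZ. Its CPM overlapped between genotypes, and its log2 fold change was -0.04 with a 95% confidence interval from -0.19 to 0.11, and 0.20 under the pan-B scaling. Zbtb33, Zbtb4 and Zbtb38, at 54.7, 33.4 and 19.6 TPM in MIZ-1WT, came to 40.6, 34.9 and 29.0 TPM in MIZ-1DPOZ and so lay closer together.

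Of the 8 members known for roles in lymphocyte or myeloid fate, 2 rose and 4 fell, beside 21.1% and 18.9% of all tested genes. Zbtb46 (chr2:181387762-181459426, minus strand), which marks conventional dendritic cells and endothelium, had 111 and 122 counts in MIZ-1WT and 313 and 254 in MIZ-1DPOZ (2.55 and 2.90 against 6.58 and 5.79 CPM). It had the largest log2 fold change of all members, 1.18 (SE 0.16, adjusted p = 0.0040), and rose from a low level. Of 7 conventional dendritic cell genes, Batf3, Itgax and Flt3 rose, Ccr7 fell, and Clec9a, Xcr1 and Clec10a did not pass the test, with summed CPM of 176 and 169 in MIZ-1WT and 156 and 149 in MIZ-1DPOZ. Ccr7 made up most of these sums, and the other 6 genes summed to 29.3 and 31.3 CPM in MIZ-1WT and 61.5 and 44.5 in MIZ-1DPOZ. The part of dendritic cells or macrophages in the rise of Zbtb46 was not tested.

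Zbtb32 (chr7:30589681-30598909, minus strand), a repressor induced in activated lymphocytes, had 150 and 168 counts in MIZ-1WT and 397 and 244 in MIZ-1DPOZ (3.44 and 3.997 against 8.34 and 5.56 CPM). Both MIZ-1DPOZ libraries were higher, but they differed from one another by 0.59 on the log2 scale. The log2 fold change was 0.90 (SE 0.23, adjusted p = 0.0259). It ranged from 0.58 to 1.18 with single libraries left out, and the test was no longer passed without either MIZ-1WT library or without MIZ-1DPOZ replicate 1. The macrophage genes differed between the MIZ-1DPOZ libraries by 0.68 on the log2 scale in the same direction. The germinal center genes differed by 0.15 and the plasma cell genes by 0.10, also in that direction. All 6 germinal center genes and 5 of 6 plasma cell genes were higher in MIZ-1DPOZ, with median log2 fold changes of 2.51 and 1.01. The part of macrophages, germinal center cells or plasma cells in the rise of Zbtb32 was not tested.

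**Figure D4:**
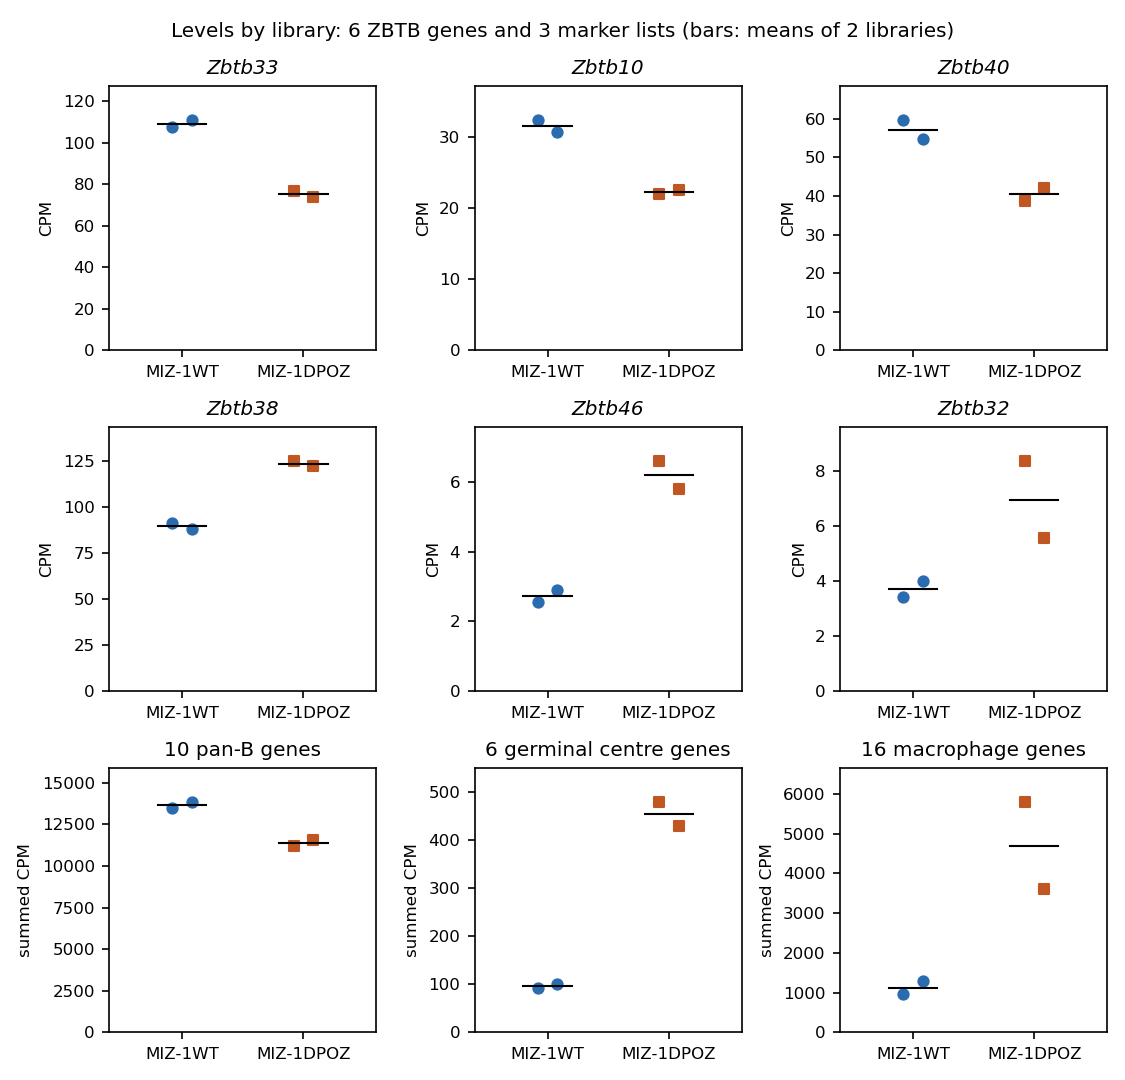
CPM by library (circles MIZ-1WT, squares MIZ-1DPOZ, bars the mean of 2 libraries) for 6 ZBTB genes, and summed CPM for the pan-B, germinal center and macrophage gene lists. Zbtb33, Zbtb10 and Zbtb40 are lower and Zbtb38, Zbtb46 and Zbtb32 higher in both MIZ-1DPOZ libraries. Zbtb32, Zbtb33, Zbtb38, Zbtb46, the germinal center list and the macrophage list are each higher in MIZ-1DPOZ replicate 1 than in replicate 2. Zbtb10, Zbtb40 and the pan-B list are lower in replicate 1.

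Zbtb18 (chr1:177442351-177450764, plus strand), the most abundant member per length, had 8756 and 7686 counts in MIZ-1WT and 6846 and 6321 in MIZ-1DPOZ (201 and 183 against 144 and 144 CPM). It fell by 0.41 on the log2 scale (SE 0.06, adjusted p = 0.0045) and remained the highest member, at 64.6 ± 2.34 TPM (SD, n = 2). With the pan-B scaling, its call was lost. Zbtb7b, the factor ThPOK of helper T cells, had 3491 and 3131 counts in MIZ-1WT and 2861 and 2748 in MIZ-1DPOZ, a log2 fold change of -0.33 (SE 0.06, adjusted p = 0.0091). Of 13 T cell genes, 2 (Cd4 and Cd28) were higher in MIZ-1DPOZ and 0 lower, beside 21.1% and 18.9% of all tested genes. The others, Cd3e, Cd3d, Cd3g and Trac among them, did not pass the test. Summed CPM of the 13 ran from 69.9 to 99.8 over the 4 libraries.

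Zbtb7a, also called LRF, opposes Notch in the choice of the B lineage. It had 2288 and 1915 counts in MIZ-1WT and 1410 and 1702 in MIZ-1DPOZ (52.5 and 45.6 against 29.6 and 38.8 CPM), so that replicates spread widely although the groups did not overlap. Its log2 fold change was -0.52 (SE 0.14, adjusted p = 0.0318), and it passed the test neither without MIZ-1WT replicate 1 nor without MIZ-1WT replicate 2. With single libraries left out it ranged from -0.72 to -0.34, the latter without MIZ-1DPOZ replicate 1. Zbtb1, which lymphoid progenitors need to develop, had 5111 and 4557 counts against 4529 and 4118, a log2 fold change of -0.26 (SE 0.05, adjusted p = 0.0161). The call of Zbtb1 was lost without MIZ-1WT replicate 1, and so was that of Zbtb7b.

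Zbtb24, mutated in the immunodeficiency syndrome ICF, had 2312 and 2392 counts in MIZ-1WT and 2365 and 2020 in MIZ-1DPOZ. Its log2 fold change of -0.20 (95% confidence interval from -0.37 to -0.03) did not pass the adjusted test (adjusted p = 0.0620). Zbtb20, which plasma cells use for long survival, had 2970 and 2553 counts against 2527 and 2689, and its groups overlapped (-0.17, interval from -0.40 to 0.05). Without MIZ-1DPOZ replicate 2 it stood at -0.27 and passed the test (adjusted p = 0.0487), and with single libraries left out it ranged from -0.27 to -0.07. Zbtb16, the factor PLZF of innate-like T cells, had 4 and 7 counts in MIZ-1WT and 7 and 9 in MIZ-1DPOZ and stayed below the count limit, whereas Zbtb9, just above it, had between 12 and 24 counts per library.

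Members with other known roles gave 5 lower and 0 higher of 7 in edgeR, beside 18.9% and 21.1% of all tested genes. Of these 7, 0 were higher at an unadjusted p under 0.05 or in DESeq2. Zbtb10, known as a repressor of SP factor genes, had 1409 and 1289 counts in MIZ-1WT and 1047 and 987 in MIZ-1DPOZ (32.3 and 30.7 against 22.0 and 22.5 CPM). The difference was far larger than that between replicates, with a log2 fold change of -0.50 (SE 0.07, adjusted p = 0.0039). Zbtb48, the telomere-binding protein TZAP, had 915 and 881 counts against 721 and 645, a log2 fold change of -0.49 (SE 0.07, adjusted p = 0.0054). Zbtb40, a large zinc finger protein, had 2599 and 2303 counts in MIZ-1WT and 1845 and 1847 in MIZ-1DPOZ, a log2 fold change of -0.50 (SE 0.07, adjusted p = 0.0048). Zbtb48 lost its call without MIZ-1WT replicate 1 and under the pan-B scaling, where Zbtb10 and Zbtb40 kept theirs.

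Zbtb2, a repressor that acts on p53 target genes, fell by 0.42 on the log2 scale and Zbtb11, needed for mitochondrial function, by 0.24. Both calls were lost without MIZ-1WT replicate 2, and that of Zbtb11 also without MIZ-1WT replicate 1. Zbtb14, a repressor of Myc, had a log2 fold change of -0.15 and did not pass the test. Zbtb8os is in the group by its symbol only, since it lies on the opposite strand of Zbtb8a and encodes archease, a cofactor of tRNA ligation without zinc fingers. Its log2 fold change was -0.04, its groups overlapped, and it shares 264 exon bases with Zbtb8a.

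The remaining 19 members gave 7 lower and 0 higher in edgeR. The shares were 18.9% and 21.1% over all tested genes, and 34.4% and 8.31% over the Zfp genes. Of the 19, again 0 were higher at an unadjusted p under 0.05 or in DESeq2. Those that fell were Zbtb39 (log2 fold change -0.45), Zbtb37 (-0.41), Zbtb6 (-0.35), Zbtb21 (-0.31), Zbtb44 (-0.22), Zbtb43 (-0.21) and Zbtb22 (-0.19). Those that did not pass the test with values below 0 were Zbtb8a (-0.33), Zbtb3 (-0.27), Zbtb49 (-0.18), Zbtb12 (-0.17), Zbtb41 (-0.14), Zbtb26 (-0.12), Zbtb25 (-0.10) and Zbtb34 (-0.01). Zbtb42 (0.61), Zbtb45 (0.42), Zbtb9 (0.35) and Zbtb5 (0.01) had values above 0 and did not pass. Zbtb42 had 87 and 133 counts in MIZ-1WT and 180 and 179 in MIZ-1DPOZ, and Zbtb45 had 210 and 156 against 258 and 262, so that neither overlapped between genotypes. Zbtb42 ranged from 0.31 to 0.98 with single libraries left out, and passed the test at 0.98 without MIZ-1WT replicate 2 (adjusted p = 0.0489). All 7 calls in this group were lost under the pan-B scaling, and all 7 were also lost without MIZ-1WT replicate 1. Zbtb37 shares 15.6% of its exon length with Serpinc1 on the opposite strand, and the strand setting of the counting is not given in the sources used here.

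Neighbouring members all had negative log2 fold changes under TMM scaling, as did 30 of all 37 members. Under the pan-B scaling, Zbtb25, Zbtb26, Zbtb34, Zbtb43 and Zbtb8os turned positive. Zbtb25 and Zbtb1, whose promoters are printed above, had log2 fold changes of -0.10 and -0.26, and Zbtb1 alone passed the test. The E-box of Zbtb25 lies at -24 from its start site, and the window of Zbtb1 holds none. Zbtb6 and Zbtb26 overlap on the same strand by 449 exon bases, with values of -0.35 and -0.12. Zbtb34 and Zbtb43, on the same strand 18962 bases apart, had -0.01 and -0.21. Zbtb8os and Zbtb8a, which overlap on opposite strands, had -0.04 and -0.33. Differences within these pairs were not tested. Of the 5 members with CACGTG in the promoter window, Zbtb11 and Zbtb21 fell, and Zbtb24, Zbtb25 and Zbtb49 did not pass the test. Of all 27 members with a promoter window, 11 fell, a similar share, beside 18.9% of all tested genes.

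Some members are also listed by the study among genes that respond to stimulation of the B cell receptor, with their binding classes. Zbtb2, Zbtb10 and Zbtb21 are listed as induced, of which Zbtb10 is listed as bound by MIZ-1 and Zbtb2 by both MIZ-1 and the truncated protein. All 3 were lower in the unstimulated MIZ-1DPOZ cells under TMM scaling, with log2 fold changes from -0.50 to -0.31. The share that fell was 45.9% of all members and 18.9% of all tested genes. Zbtb10 alone of the 3 kept its call under the pan-B scaling. Zbtb4 and Zbtb7b are listed as repressed, with Zbtb7b bound by the truncated protein. They had log2 fold changes of -0.04 and -0.33, and Zbtb7b passed the test as lower. A link of these listings with the fold changes was not tested.

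Of 8 family members with other names, 3 fell and 0 rose in edgeR, beside 18.9% and 21.1% of all tested genes. At an unadjusted p under 0.05 or in DESeq2, 0 of the 8 were higher. Bcl6, the repressor that drives the germinal center program, had 4983 and 4421 counts in MIZ-1WT and 2031 and 1887 in MIZ-1DPOZ (114 and 105 against 42.7 and 43.0 CPM). Under TMM scaling it had a larger change than any of the 37 members, with a log2 fold change of -1.36 (SE 0.06, adjusted p = 0.0007), and stood at -1.11 under the pan-B scaling. The 6 germinal center genes moved the other way in the same libraries, with log2 fold changes from 1.09 to 3.02. Patz1 and Mynn fell by 0.32 and 0.28 on the log2 scale, and Bcl6b, Gzf1, Hic1, Hic2 and Zfp131 did not pass the test.

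Of 21 corepressor and coactivator genes whose products ZBTB proteins are known to contact, 10 fell and 0 rose in edgeR. Over all tested genes, 18.9% fell and 21.1% rose. The median log2 fold change of the 21 was -0.21. At an unadjusted p under 0.05, 1 was higher, and in DESeq2 0 were. The genes of the POZ-binding corepressors Ncor1 and Bcor had values of -0.30 and -0.29, and that of the BCOR relative Bcorl1 had -0.72. Ep300, which encodes the acetyltransferase p300 that MIZ-1 recruits, had -0.59. Crebbp, which also encodes an acetyltransferase, had -0.54. Hdac5 (-0.50), Gps2 (-0.28), Sin3a (-0.23) and Sin3b (-0.21) fell as well, whereas Hdac1, Hdac2, Hdac3, Hdac4, Hdac7, Cul3, Rcor1, Kdm1a, Mta3, Tbl1x and Tbl1xr1 did not pass the test. Under the pan-B scaling, 3 of the 21 were lower and 7 higher, beside 5.43% and 41.4% of all tested genes.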

How the data were processed

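Raw counts of Ensembl genes were deposited for 4 libraries of B220+ splenocytes, 2 per genotype. Per the labels and the study's methods, total RNA was depleted of ribosomal RNA, and the paired-end reads were trimmed with Trimmomatic, aligned to mm10 with TopHat2 (2.1.0 in the submitters' processing notes) and counted with HTSeq. The Ensembl release and strand setting are not given in the sources used here, so reads of overlapping genes are uncertain. The summary lines of HTSeq, in which reads outside genes made up from 21.1% to 27.2%, were left out.

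Symbols came from a GENCODE annotation of GRCm38. The 14554 genes that reached 10 counts in 2 or more libraries were fitted with edgeR 4.0.16 in R 4.3.3, using TMM factors and the quasi-likelihood test, with p-values adjusted over all of them by Benjamini-Hochberg. The script was tested on simulated data. TPM were computed from exon lengths. Every member was named, with full values for fate and methyl-CpG members and the 5 with the smallest p in each direction. The values of 1 cofactor gene are not reported here. Members and lists were chosen with earlier results of these data known. Alternatives were DESeq2 1.42.0 (size factors, Wald test), scaling to 9 pan-B genes, other filters, a replicate block and leaving out each library.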

Additional observations from a re-analysis of the deposited data

Results flagged for a closer look

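Of 3 ZBTB genes below the count limit, a pair were picked because they were seen mainly in MIZ-1DPOZ, outside every comparison above. The third, Zbtb16, had 4 and 7 counts in MIZ-1WT and 7 and 9 in MIZ-1DPOZ. Zbtb7c had 1 and 0 counts in the MIZ-1WT libraries and 3 and 4 in the MIZ-1DPOZ libraries, or 7 over both MIZ-1DPOZ libraries against 1. Zbtb8b had 0 and 0 counts in MIZ-1WT and 4 and 2 in MIZ-1DPOZ, or 6 over both, where a count of 0 allows up to 3. Neither gene of the pair was tested, and the floor of 3 covers counting error only.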

How the results depend on the processing

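With 2 libraries per genotype, the counts of members that passed the test depend on single MIZ-1WT libraries, and the direction of small changes depends on the scaling. DESeq2's size factors, the Wald test and the filters on low counts each left 3 members higher and 16 or 17 lower, and in these fits Zbtb22 alone lost its call. Scaling to 9 pan-B genes gave 7 members higher and 3 lower with a median of 0.047. It gave 1 and 1 with a median of -0.053 for the family members with other names. For the cofactor list, it gave 7 and 3 with a median of 0.033. With this scaling, 41.4% of all tested genes were higher and 5.43% lower. Under it, the log2 fold changes of Zbtb12 (0.073), Zbtb14 (0.090), Zbtb20 (0.070), Zbtb22 (0.053), Zbtb24 (0.047), Zbtb25 (0.14), Zbtb26 (0.12), Zbtb34 (0.23), Zbtb4 (0.20), Zbtb41 (0.11), Zbtb43 (0.032), Zbtb44 (0.025), Zbtb49 (0.069), Zbtb8os (0.20), Sin3a (0.016) and Sin3b (0.033) turned positive, since that scaling shifts the values of all genes upward. A minimum mean of 1 CPM, with fewer genes tested, gave Zbtb34 0.0042, a median of -0.19 for 6 of the family members with other names, and 1 cofactor gene higher.

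With single libraries left out, from 2 to 3 members were higher and from 5 to 17 lower, with medians from -0.24 to -0.20. From 1 to 4 of the family members with other names (medians from -0.30 to -0.25) and from 2 to 10 cofactor genes (medians from -0.25 to -0.13) were lower. Zbtb25 ranged from -0.25 to 0.053, Zbtb34 from -0.19 to 0.15, Zbtb4 from -0.097 to 0.026, Zbtb8os from -0.097 to 0.018 and Zbtb5 from -0.032 to 0.058. Zbtb25, Zbtb34, Zbtb4, Zbtb8os and Zbtb5 passed the test in none of these fits. Fewer samples enter each of them.

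The replicate numbers do not pair the samples by any label, and the deviations of same-numbered libraries had a correlation of -0.07 over genes. A fit with the replicate number as a block gave 3 members higher and 13 lower, with Zbtb21, Zbtb22, Zbtb43 and Zbtb44 no longer called.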

Other observations

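Zbtb11os1, an antisense gene that shares 489 exon bases with Zbtb11, had 188 and 198 counts in MIZ-1WT and 198 and 206 in MIZ-1DPOZ. Its CPM overlapped between the genotypes, while those of Zbtb11 did not.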
